A study of Homo sapiens with 72 samples.

Results

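In cells without CSB, gene expression did not settle between 4 h and 20 h after ultraviolet (UV) irradiation. At 20 h it lay farther from the untreated state than at 4 h, while in unedited cells it lay nearer. On the median, genes under 30 kb rose further above their untreated level, 73 of 74 ribosomal protein genes among the risers, and genes of 100 kb or more fell further below it. In unedited cells the median of genes over 300 kb fell further as well, while that of genes of 100 to 300 kb moved back up. The comparison set 3 libraries of a CSB knockout at 20 h in the solvent DMSO against 3 libraries of the same knockout at 4 h in DMSO, 6 of the 72 libraries of the series. A further 3 libraries of the untreated knockout were used to sort genes into those that had returned to their untreated level at 20 h and those still moving away from it.

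CSB, encoded by ERCC6, is a chromatin remodelling protein that binds RNA polymerase II stalled at a DNA lesion and recruits the factors of transcription-coupled nucleotide excision repair. Cells without it fail to clear UV lesions from transcribed strands at the normal rate, and their RNA synthesis recovers poorly after UV. A polymerase that starts at a promoter meets more lesions in a long gene than in a short one, so gene length is a usual axis along which UV responses are described.

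The cells were HEK293 Flp-In T-REx, a human embryonic kidney line with a site for inserting transgenes. Besides the CSB knockout (CSB_KO), for which the labels name 1 clone, the groups used here come from unedited cells (WT) and from 2 clones with STK19 knocked out (STK19_KO1 and STK19_KO2), STK19 being another protein of transcription-coupled repair. Every group had 3 libraries of polyadenylated RNA. Cells labelled 4 h and 20 h were irradiated, left for 3 h and then given DMSO. The hours run from irradiation in the series design but from DMSO in the sample descriptions, and no source used here states the UV dose. No unirradiated cells at the later times were analysed here, so the effects of UV, of DMSO and of time in culture cannot be told apart. The labels do not say whether replicates were separate cultures, and p-values therefore measure only the spread between these samples. A trait of the 1 clone cannot be told apart from the loss of CSB.

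The 9 CSB_KO libraries held 39.8 to 153 M counts and the 9 matching WT libraries 41.1 to 137 M (M, 10 to the power of 6). Levels are given as CPM, counts per M counts of a library, after trimmed-mean scaling, which makes them shares of a library. The absolute amount of RNA was not measured, and in bulk samples fewer cells with a transcript and less of it per cell cannot be told apart. Replicate 1 of WT lay apart from its group in untreated cells and at 4 h, with a chi-square per gene of 25 to 49.5 against the other replicates, and no pair of CSB_KO replicates exceeded 12.8. HEK293 markers were present in CSB_KO, with a summed level of 1458 to 1512 CPM in untreated cells, 1961 to 1986 CPM at 4 h and 1465 to 1544 CPM at 20 h.

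ERCC6 transcripts were present in every CSB_KO library, at 6.89, 6.40 and 7.62 CPM in untreated cells, 9.21, 8.63 and 8.14 CPM at 4 h, and 10.5, 12.7 and 11.3 CPM at 20 h. In WT they stood at 23.4, 24 and 23.0 CPM in untreated cells, 16.5, 14.2 and 13.5 CPM at 4 h, and 37.7, 35.7 and 36.8 CPM at 20 h. The knockout libraries thus held less of the transcript than WT at each time, which accords with their label but does not measure the protein. Between 4 h and 20 h ERCC6 rose by 0.42 ± 0.08 (SE) on the log2 scale in CSB_KO and by 1.32 ± 0.07 in WT. The increase was smaller in CSB_KO by 0.90 (difference -0.90 ± 0.11, edgeR quasi-likelihood test, adjusted p = 7.5e-11).

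The change between 4 h and 20 h in CSB_KO covered most of the expressed genome. Of 15470 genes tested, 5350 (34.6%) were higher at 20 h and 5748 (37.2%) lower, at a Benjamini-Hochberg adjusted p under 0.05 in edgeR's quasi-likelihood test. At a change of 2-fold or more, 1836 genes (11.9%) were higher and 1679 (10.9%) lower. The CPM of the 3 libraries at 20 h did not overlap those of the 3 at 4 h in 11666 genes (75.4%). In WT over the same interval 5268 genes (34.1%) were higher and 5489 (35.5%) lower, and at 2-fold or more 1668 (10.8%) were higher and 1138 (7.36%) lower. The median absolute log2 change was 0.574 in CSB_KO and 0.492 in WT.

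The direction relative to untreated cells differed. The median distance of a gene from its untreated mean was 0.774, 0.784 and 0.781 (absolute log2) in the CSB_KO libraries at 20 h, and 0.398, 0.426 and 0.420 in those at 4 h. The WT libraries had 0.304, 0.313 and 0.299 at 20 h, and 0.416, 0.463 and 0.490 at 4 h. All CSB_KO libraries were farther from untreated at 20 h than at 4 h, all WT libraries were nearer, and the 2 times did not overlap in either line. The share of genes at least 2-fold from the untreated mean was 38.9% to 39.8% at 20 h and 14.9% to 16.3% at 4 h in CSB_KO, against 14.1% to 15% at 20 h and 18.5% to 20.2% at 4 h in WT. Against untreated cells, 5929 genes (38.3%) were called higher and 6272 (40.5%) lower in CSB_KO at 20 h, and in WT at 20 h 4638 (30%) were higher and 3932 (25.4%) lower.

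Each gene was then sorted by its untreated level. A gene was displaced at 4 h if it was called against untreated cells with a change of at least 1.5-fold. A displaced gene returned if it moved back at 20 h, by a call, to within 1.5-fold of untreated, and partly returned if it moved back but stayed 1.5-fold away. It crossed if it came out 1.5-fold away on the other side, was held if 20 h and 4 h did not differ by a call, and moved further if it went on in the same direction. A gene not displaced at 4 h was late if it was called at 20 h against both 4 h and untreated, at least 1.5-fold from untreated. The contrasts share libraries, so these counts are a description.

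In CSB_KO 4221 genes were displaced at 4 h, 1654 raised (10.7% of those tested) and 2567 lowered (16.6%). Of all displaced genes 2070 (49.0%) moved further, 986 (23.4%) were held, 718 (17.0%) returned, 353 (8.36%) partly returned and 94 (2.23%) crossed. A further 4876 genes were late. In WT 4925 genes were displaced, 2168 raised (14%) and 2757 lowered (17.8%), of which 305 (6.19%) moved further and 3122 (63.4%) returned, and 1574 were late. Under the alternative scalings, filters and fold limits, and without any one of the libraries, the share of displaced genes that moved further was 44.2% to 51.5% in CSB_KO. Genes that moved further or were late made up 44.9% of all tested genes in CSB_KO and 12.1% in WT.

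**Figure D1:**
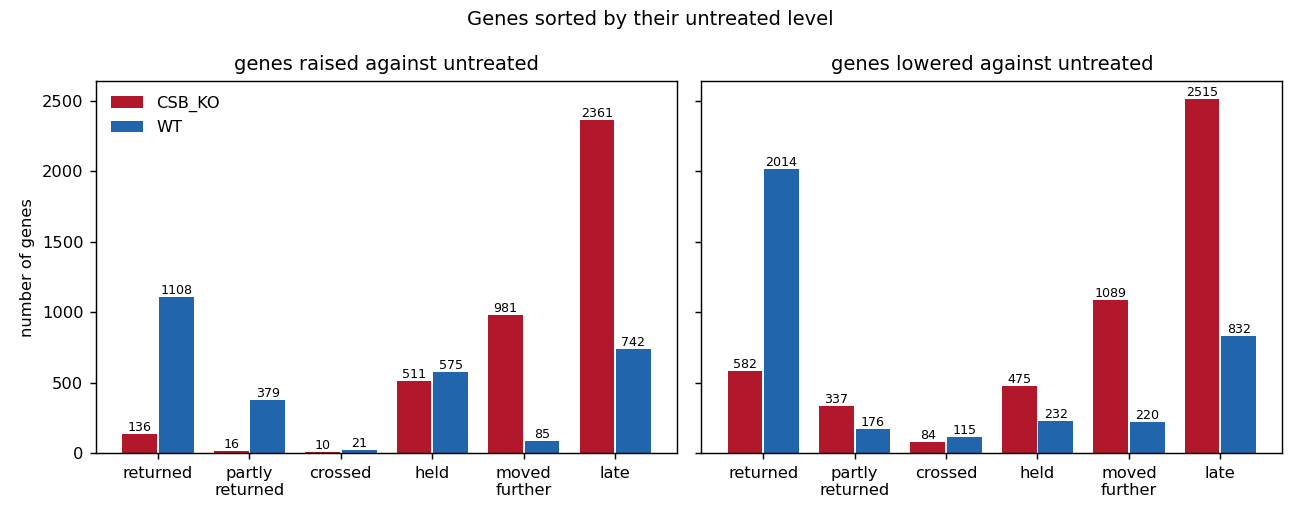
Numbers of genes in each class of the sort, for genes above (left panel) and below (right panel) their untreated level, in CSB_KO (red) and WT (blue). Bars give counts of genes, and late genes are placed by their side at 20 h. In CSB_KO 981 raised and 1089 lowered genes moved further, against 85 and 220 in WT.

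The sides behaved differently in CSB_KO. Of the 1654 genes raised at 4 h, 981 moved further up, 511 were held and 136 returned. The held ones had low levels, with a median log2 CPM of 0.639 over the 9 CSB_KO libraries. Raised genes that moved further had 4.03 and those that returned 3.52. The part of low counts in the missing calls was not tested. Of the 2567 lowered genes 1089 moved further down, 582 returned and 337 partly returned. Lowered genes thus held 582 of the 718 that returned in CSB_KO.

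The libraries at 4 h enter both the displacement and the later change, and noise in them alone would make genes seem to come back. With the displacement taken from the 3 CSB_KO libraries at 3 h, cells collected after irradiation and before any solvent, 1308 genes were raised (8.46%) and 2348 lowered (15.2%). Of those raised 815 (62.3%) went further away from untreated between 4 h and 20 h and 94 (7.19%) went back. The lowered genes were split, 938 (39.9%) further away and 942 (40.1%) back.

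Many of the genes that moved further in CSB_KO were displaced to the same side in WT at 4 h and came back there. Of 1147 genes raised in both lines, 816 moved further in CSB_KO and 40 in WT. Of those 816 genes 381 (46.7%) had returned in WT at 20 h and 252 (30.9%) had partly returned. Among 2098 genes lowered in both lines, 1039 moved further in CSB_KO, and 727 of these (70.0%) had returned in WT. Of 1639 lowered genes that returned in WT, 298 (18.2%) also returned in CSB_KO.

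Among the genes with the largest increases in CSB_KO between 4 h and 20 h, KRBA2, on chromosome 17 (GRCh38, 8356902 to 8376704), had 3.38, 2.46 and 2.65 CPM in untreated CSB_KO cells, 5.23, 6.19 and 5.97 CPM at 4 h, and 51.3, 53.7 and 49.9 CPM at 20 h. The change of 3.16 ± 0.10 (log2, SE) at 20 h against 4 h was the largest increase among genes with a symbol and a mean log2 CPM of at least 3 (edgeR adjusted p = 2.88e-34). In WT KRBA2 had 7.67, 8.78 and 8.37 CPM at 20 h and 12.1, 11.1 and 10.2 CPM at 4 h, a decrease.

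TXNIP, an inhibitor of thioredoxin that also restrains glucose uptake, rose by 2.65 ± 0.07 in CSB_KO, to 53.8, 48.5 and 51.5 CPM at 20 h against 8.36, 7.80 and 8.31 CPM at 4 h. ALDOC, an aldolase of glycolysis, rose by 2.49, to 43.7, 49.3 and 48.7 CPM at 20 h against 7.89, 9.0 and 8.5 CPM at 4 h. NME1-NME2 rose by 2.92, but this readthrough transcript shares its exons with NME1 and NME2, so its count is uncertain. TNFRSF10D, a decoy receptor for the death ligand TRAIL, had 525, 532 and 536 CPM at 20 h against 104, 98.1 and 99.8 CPM at 4 h in CSB_KO.

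The largest decrease was in GPHN, which encodes gephyrin, a scaffold of inhibitory synapses and an enzyme of molybdenum cofactor synthesis. It had 36.3, 35.3 and 34.5 CPM in untreated CSB_KO cells, 20.7, 20.5 and 21.4 CPM at 4 h, and 2.22, 2.56 and 2.00 CPM at 20 h, a change of -3.18 ± 0.09 (edgeR adjusted p = 3.64e-36). GPHN spans 674 kb, and it fell in WT as well, by 2.12 on the log2 scale (-2.12 ± 0.08). HMGA2, an architectural chromatin protein of growing embryonic cells, had 119, 121 and 116 CPM in untreated CSB_KO cells, 94.6, 91.5 and 90.4 CPM at 4 h, and 11.7, 12.7 and 11.6 CPM at 20 h. Its change was -2.94 ± 0.07 in CSB_KO and -0.57 ± 0.06 in WT. IGF2BP2, an RNA-binding protein that stabilises messages, fell by 2.55 in CSB_KO and by 0.32 in WT. PDE3B, a phosphodiesterase of cyclic nucleotides, fell by 2.72 in CSB_KO, to 2.70, 3.18 and 3.98 CPM at 20 h against 22.4, 20.4 and 22.3 CPM at 4 h. In WT the change of PDE3B was -0.09 ± 0.08 and was not called (adjusted p = 0.323).

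**Figure D2:**
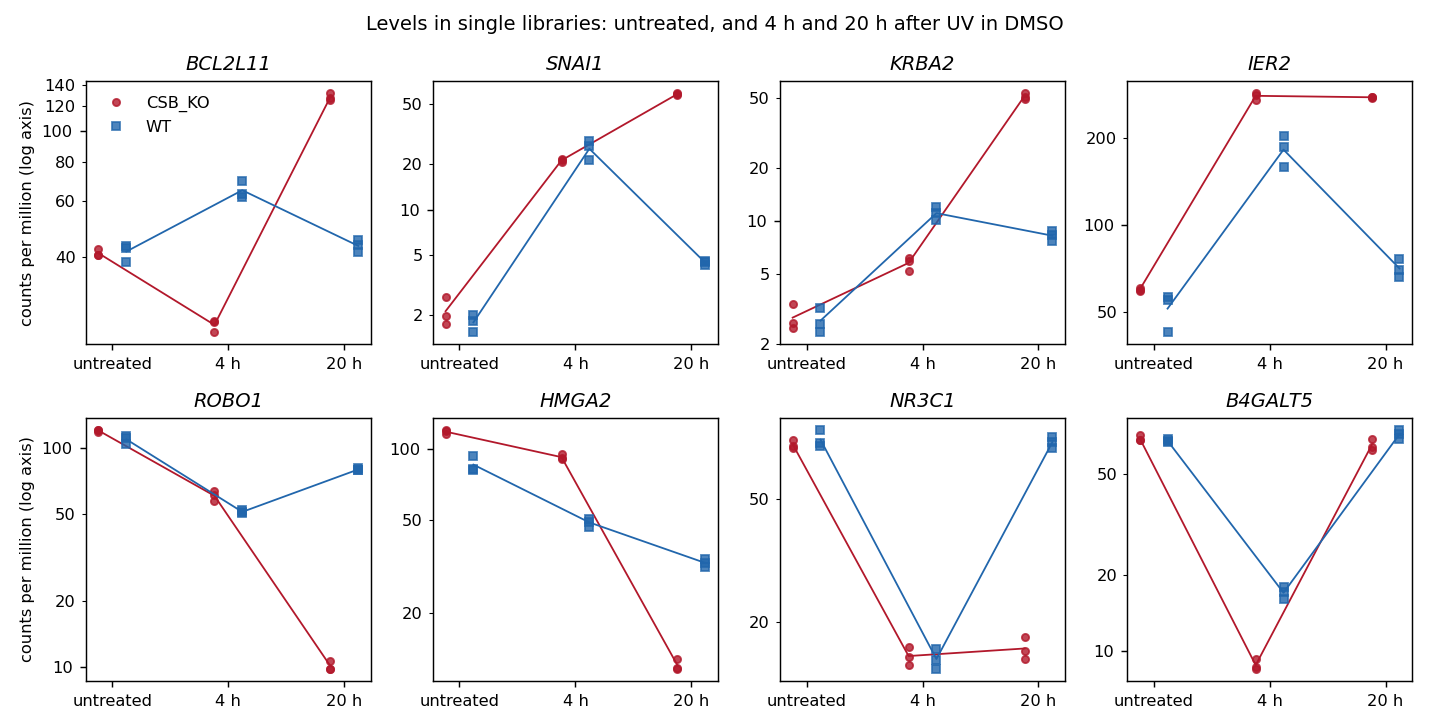
Levels in CPM (log axis) of 8 genes in each CSB_KO (red circles) and WT (blue squares) library, untreated and at 4 h and 20 h in DMSO, with lines through the group means. SNAI1 and KRBA2 went on rising in CSB_KO and came down in WT, ROBO1 went on falling in CSB_KO and recovered in WT, and B4GALT5 returned to about its untreated level in both lines.

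Genes that returned in CSB_KO had mostly been lowered. B4GALT5, a galactosyltransferase of glycolipid synthesis, had 68.1, 67.8 and 70.8 CPM in untreated CSB_KO cells, 9.32, 8.53 and 8.65 CPM at 4 h, and 61.9, 68.6 and 63.7 CPM at 20 h. The difference from untreated at 20 h was -0.09 ± 0.06 (edgeR adjusted p = 0.155). AHDC1, a DNA-binding protein, GJC1, a gap junction connexin, and UGCG, the enzyme that makes glucosylceramide, also returned, with increases between 4 h and 20 h of 2.57, 2.31 and 2.09 in CSB_KO. All 4 returned in WT as well. Among the few raised genes that returned, the largest decreases were in ZNF587B, ARFGAP2, ZNF551 and MRM1, between 1.05 and 1.21 on the log2 scale. ZNF551, a zinc finger gene, had 28.2, 26.3 and 26.3 CPM in untreated CSB_KO cells, 79.8, 80.1 and 82.0 CPM at 4 h, and 38.3, 37.0 and 36.5 CPM at 20 h.

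Among the partly returned genes with the largest recovery, FRS2, an adaptor of fibroblast growth factor receptors, had 37.6, 37.0 and 34.3 CPM in untreated CSB_KO cells, 7.24, 6.34 and 6.98 CPM at 4 h, and 21.3, 23.2 and 21.3 CPM at 20 h. SPRED2, an inhibitor of the Ras to ERK pathway, had 33.5, 34.6 and 32.6 CPM in untreated CSB_KO cells, 4.51, 4.54 and 5.41 CPM at 4 h, and 14.8, 14.2 and 13 CPM at 20 h. Both had returned in WT, where SPRED2 stood at 40.9, 40.8 and 41.5 CPM in untreated cells, 7.11, 8.5 and 8.83 CPM at 4 h, and 41.3, 40.3 and 43.2 CPM at 20 h.

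The crossed genes named here were lowered at 4 h and came out above untreated at 20 h in CSB_KO. BCL2L11, which encodes the death-promoting protein BIM, had 40.4, 40.4 and 42.2 CPM in untreated CSB_KO cells, 23.0, 24.9 and 25 CPM at 4 h, and 126, 127 and 132 CPM at 20 h. In WT it moved the opposite way, with 42.7, 38.6 and 43.2 CPM in untreated cells, 69.7, 61.9 and 63.4 CPM at 4 h, and 43.5, 41.2 and 45.1 CPM at 20 h. The change at 20 h against 4 h was 2.41 ± 0.06 in CSB_KO and -0.59 ± 0.05 in WT, and the lines differed by 2.99 ± 0.08 (edgeR adjusted p = 3.41e-39). RNF168, a ubiquitin ligase of the DNA double-strand break response, had 27.6, 27.1 and 31.0 CPM in untreated CSB_KO cells, 15.9, 14.4 and 14.2 CPM at 4 h, and 87.4, 82.8 and 83.3 CPM at 20 h. LRRC8A, a subunit of the volume-regulated anion channel, and ZFYVE1, a protein of omegasome membranes, crossed in the same way, with increases of 2.55 and 2.56. No raised gene that crossed met the rule for named genes.

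Genes held between 4 h and 20 h in CSB_KO kept their displacement in the sense that no change was called, which does not show that they did not change. IER2, an immediate early gene, had 59.0, 60.8 and 59.6 CPM in untreated CSB_KO cells, 270, 286 and 282 CPM at 4 h, and 274, 278 and 278 CPM at 20 h (change -0.02 ± 0.09, edgeR adjusted p = 0.878). In WT IER2 had returned, with 65.8, 76.5 and 69.9 CPM at 20 h and 159, 186 and 202 CPM at 4 h. DDIT3, a stress transcription factor induced by ATF4, had 6.31, 7.19 and 6.74 CPM in untreated CSB_KO cells, 29.6, 25.3 and 28.8 CPM at 4 h, and 28.9, 29.7 and 28.8 CPM at 20 h. NR3C1, the glucocorticoid receptor, was held low, with 77.9, 74.6 and 73.4 CPM in untreated CSB_KO cells, 15.4, 14.6 and 16.6 CPM at 4 h, and 15.2, 17.9 and 16.2 CPM at 20 h. In WT NR3C1 had 79.4, 73.2 and 76.8 CPM at 20 h and 16.4, 15.1 and 14.1 CPM at 4 h, so it rose in WT by 2.33 while no change was called in CSB_KO (difference of changes -2.25 ± 0.11, adjusted p = 3.17e-25). ZNF608 and TCF7L2, a transcription factor of Wnt signalling, were held low in CSB_KO and returned in WT in the same way.

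The classes differed in gene span, the distance from the start to the end of the gene in the deposited coordinates. The median span was 8.66 kb among raised genes that moved further in CSB_KO and 135 kb among lowered genes that moved further, against 32.7 kb over all tested genes. Late genes had a median span of 16.1 kb on the raised side and 77.4 kb on the lowered side. Lowered genes that returned had a median of 46.2 kb, and those that partly returned 85.9 kb. Among lowered genes, the median span was thus shorter in those that had come back fully than in those that partly returned or moved further.

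By span class, the median log2 change at 20 h against 4 h in CSB_KO was 0.30 for 3124 genes under 10 kb, 0.23 for genes of 10 to 30 kb, -0.07 for genes of 30 to 100 kb, -0.64 for 2475 genes of 100 to 300 kb, -0.97 for genes of 300 to 500 kb, and -0.92 for 236 genes over 500 kb. The same medians in WT were -0.31, -0.12, 0.21, 0.23, -0.75 and -1.68. The medians thus had opposite signs in the classes up to 300 kb and were negative in both lines in the longer ones. For genes of 30 to 100 kb the CSB_KO median was small (-0.07), and its sign was not checked with other scalings. With genes ranked by exonic length in place of span, in classes of the same size, the medians of the fourth and the last class in CSB_KO were -0.36 and -0.68. Of genes of 100 to 300 kb, 285 (11.5%) were higher and 1633 (66.0%) lower in CSB_KO, against 1194 (48.2%) higher and 681 (27.5%) lower in WT. On the test of the difference between the lines, 277 of these genes (11.2%) rose more and 1641 (66.3%) fell more in CSB_KO.

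Single libraries showed the same medians within narrow ranges. Relative to untreated cells, genes of 100 to 300 kb had a median log2 change of -1.16 to -1.15 in the CSB_KO libraries at 20 h and -0.39 to -0.35 in those at 4 h, against -0.31 to -0.26 at 20 h and -0.58 to -0.50 at 4 h in WT. Genes under 10 kb had 0.69 to 0.72 at 20 h and 0.41 to 0.47 at 4 h in CSB_KO, against 0.15 to 0.24 at 20 h and 0.37 to 0.55 at 4 h in WT. Genes over 500 kb departed from this order. Their median at 20 h was -1.43 to -1.26 in CSB_KO and -2.05 to -1.93 in WT, so that the longest genes were lower in WT.

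**Figure D3:**
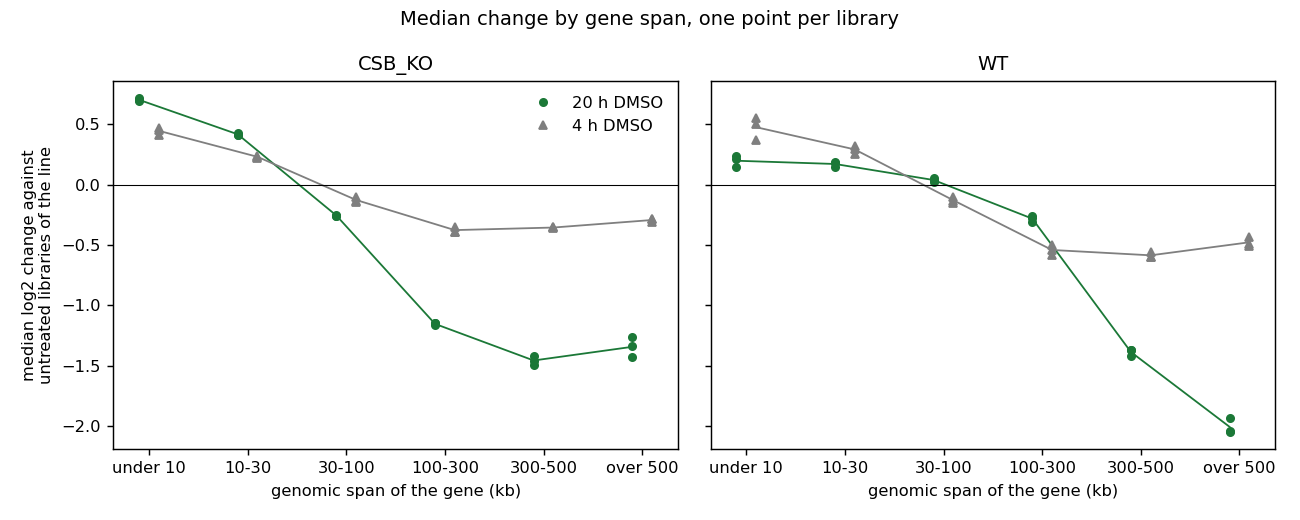
Median log2 change against the untreated libraries of the same line, by genomic span of the gene (kb), in each library at 20 h (green circles) and 4 h (grey triangles), with lines through the group means, for CSB_KO (left) and WT (right). In CSB_KO the genes of 100 to 300 kb lay at -1.16 to -1.15 at 20 h and -0.39 to -0.35 at 4 h.

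The class of over 500 kb held genes with opposite fates. ROBO1, an axon guidance receptor of 1171 kb, had 121, 121 and 118 CPM in untreated CSB_KO cells, 63.2, 60.9 and 57.0 CPM at 4 h, and 9.81, 9.84 and 10.7 CPM at 20 h. In WT it had 79.2, 79.1 and 80.5 CPM at 20 h and 51.9, 50.2 and 50.8 CPM at 4 h, and the lines differed by -3.22 ± 0.10 (edgeR adjusted p = 5.02e-34). EXOC4, a subunit of the exocyst of 814 kb, went the other way. It had 69.8, 70.5 and 74.5 CPM at 20 h against 94.6, 93.7 and 98.0 CPM at 4 h in CSB_KO, and 15.7, 14 and 14 CPM at 20 h against 85.4, 78.5 and 79.3 CPM at 4 h in WT. TBC1D5, a regulator of endosomal transport of 1288 kb, behaved like EXOC4, with a change of -0.56 ± 0.07 in CSB_KO and -2.43 ± 0.07 in WT. Both fell less in CSB_KO than in the STK19 knockouts too, by the test of that difference (1.99 ± 0.06 and 2.10 ± 0.09, adjusted p = 1.06e-34 and 4.09e-28).

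The difference between CSB_KO and WT in the change from 4 h to 20 h was itself called in 10968 genes (70.9%), 5320 (34.4%) higher and 5648 (36.5%) lower in CSB_KO. The largest positive differences were in short genes that WT had brought down again. SNAI1, a repressor of epithelial genes, had 1.98, 2.66 and 1.75 CPM in untreated CSB_KO cells, 20.9, 21.3 and 21.8 CPM at 4 h, and 58.2, 58.1 and 59.5 CPM at 20 h. In WT SNAI1 had 4.34, 4.56 and 4.49 CPM at 20 h and 21.3, 26.6 and 28.4 CPM at 4 h, and the lines differed by 3.97 ± 0.15 (adjusted p = 1.64e-31). PSPN, a neurotrophic ligand, differed by 4.15 ± 0.16, and ZNF596, EHBP1L1 and AOC3, an amine oxidase, by 3.70 to 3.89. All 5 moved further in CSB_KO and partly returned in WT.

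The largest negative differences were in long genes that WT had restored. FYN, a Src family kinase of 213.1 kb on chromosome 6, had 93.0, 95.7 and 93.7 CPM in untreated CSB_KO cells, 46.7, 45.7 and 47.4 CPM at 4 h, and 14.1, 13.4 and 13.7 CPM at 20 h. In WT it had 80.7, 79.7 and 83.1 CPM at 20 h and 27.7, 29 and 30.7 CPM at 4 h, a difference between the lines of -3.24 ± 0.06 (edgeR adjusted p = 3.3e-44). ADGRL2, an adhesion receptor, had 10.1, 10.9 and 10.6 CPM at 20 h against 31.6, 28.8 and 29.6 CPM at 4 h in CSB_KO, and 90.5, 84.8 and 91.2 CPM at 20 h against 27.3, 24.6 and 23.3 CPM at 4 h in WT. TANC1, a postsynaptic scaffold, and PIK3CB, a catalytic subunit of phosphoinositide 3-kinase, differed by -3.29 ± 0.11 and -3.19 ± 0.16. All 4 were below untreated at 4 h in each line.

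Against the mean of both STK19 knockouts, the change in CSB_KO was called different in 9555 genes (61.8%), 5043 (32.6%) higher and 4512 (29.2%) lower. The STK19 lines stood between WT and CSB_KO in genes of 100 to 300 kb, with medians of -0.14 and -0.20 for 20 h against 4 h. CSB_KO fell below them there by a median of 0.46 (-0.46, with 1362 of 2475 genes, 55.0%, called lower). Longer genes did not keep this order. From 300 to 500 kb the medians were -0.90 and -1.19 in the STK19 knockouts and -0.97 in CSB_KO. Over 500 kb they were -1.32 and -1.66 in the STK19 knockouts and -0.92 in CSB_KO. In that class CSB_KO was called higher in 47.5% of genes and lower in 12.7%. FYN changed by 0.39 and 0.06 in the STK19 knockouts and by -1.76 in CSB_KO, a difference of -1.99 ± 0.06 (edgeR adjusted p = 1.66e-35). MBNL1, a splicing regulator, and PEX14, a peroxisomal import protein, differed by -1.95 and -2.11. KRBA2 rose more in CSB_KO by 2.68 ± 0.12.

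Ribosomal protein genes, which are short and highly expressed, rose almost without exception in CSB_KO. Of 74 genes tested 73 were higher at 20 h and none lower, beside 34.6% and 37.2% of all genes, with a median log2 change of 0.66. Their summed level was 62084, 63570 and 61819 CPM in untreated CSB_KO cells, 91224, 95338 and 91473 CPM at 4 h, and 141393, 149382 and 145087 CPM at 20 h. In WT all 74 fell between 4 h and 20 h, beside 35.5% of all genes, with a median of -0.61. On the test of the difference between the lines all 74 were higher in CSB_KO, beside 34.4% of all genes. RPS18 had 3745.5, 3820.2 and 3571 CPM at 20 h against 1866, 2060.1 and 1842.5 CPM at 4 h in CSB_KO. Nuclear genes of oxidative phosphorylation followed in part, with 29 of 48 higher and 10 lower in CSB_KO. In WT 0 were higher and 46 lower, beside 34.1% and 35.5% of all genes. Among those lower in CSB_KO, NDUFV2, a complex I subunit of 31.7 kb, had 25.4, 26.1 and 25.2 CPM at 20 h against 66.6, 66.8 and 66.4 CPM at 4 h.

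All 13 genes encoded by mitochondrial DNA rose in CSB_KO, beside 34.6% of all genes, with a median of 0.78. In WT all 13 fell, beside 35.5% of all genes, with a median of -1.40. These genes are transcribed by their own polymerase and not by RNA polymerase II. They made up 3.34% ± 0.08 of counts in untreated CSB_KO cells, 2.4% ± 0.22 at 4 h and 3.93% ± 0.45 at 20 h (SD, n = 3 each), against 3.30% ± 0.18, 4.71% ± 0.11 and 2.35% ± 0.37 in WT. The mean shares of CSB_KO and WT thus lay on opposite sides of untreated at 4 h and again at 20 h.

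Replication-dependent histone genes had the largest median in CSB_KO of the 24 lists that are not cell type markers, 1.46, with 22 of 28 genes higher and 1 lower. Their messages normally end without a poly(A) tail, so a library of polyadenylated RNA captures only a part of them, and reads of near-identical copies may be shared. Their summed level was 70.5, 78.4 and 98.8 CPM in untreated CSB_KO cells, 110, 106 and 104 CPM at 4 h, and 351, 382 and 377 CPM at 20 h. In WT it was 75.4, 88.9 and 89.0 CPM in untreated cells, 162, 167 and 155 CPM at 4 h, and 145, 159 and 162 CPM at 20 h. H2BC5 had 33.5, 41.2 and 35.1 CPM at 20 h against 3.40, 2.58 and 2.51 CPM at 4 h in CSB_KO. H4C1 had 3, 11 and 2 counts at 20 h and none at 4 h, too few for a fold change. Among G1/S and replication genes 26 of 40 rose and 12 fell in CSB_KO. E2F2, an activator of replication genes, rose by 1.62, while the longer RB1, the retinoblastoma brake on them, fell by 1.32, to 41.6, 43.8 and 43.5 CPM at 20 h against 112, 105 and 104 CPM at 4 h. Of 33 mitotic genes 11 were higher and 12 lower, close to the 34.6% and 37.2% of all genes. CENPA, the histone of centromeres, rose by 1.80, and CENPE and BUB1B, of the spindle checkpoint, fell by 1.48 and 1.33.

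Immediate early genes, which growth factors and stress switch on without new protein synthesis, rose further in CSB_KO. Of 29 genes tested 24 were higher and 1 lower at 20 h against 4 h, beside 34.6% and 37.2% of all genes, with a median of 0.69. Of these 29 genes 17 moved further, beside 13.4% of all tested genes. In WT 7 were higher and 18 lower, beside 34.1% and 35.5% of all genes, with a median of -0.46. Their summed level was 1117, 1131 and 1147 CPM in untreated CSB_KO cells, 1980, 2025 and 2002 CPM at 4 h, and 2717, 2674 and 2736 CPM at 20 h. MYC was the member that fell, to 25.9, 29.5 and 31.1 CPM at 20 h against 34.2, 33.7 and 32.6 CPM at 4 h in CSB_KO, with 112, 114 and 109 CPM in untreated cells. MYC had partly returned in WT. Of 23 ERK feedback genes 16 rose and 3 fell in CSB_KO, beside the same 34.6% and 37.2% of all genes.

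DUSP1, from the ERK feedback list, and PPM1D, a p53 target, returned from opposite sides of the untreated level. DUSP1 is a phosphatase that switches off MAP kinases. It had 25, 25.9 and 24.8 CPM in untreated CSB_KO cells, 61.2, 60.5 and 60.5 CPM at 4 h, and 32.3, 30.1 and 30.4 CPM at 20 h (change -0.98 ± 0.05, edgeR adjusted p = 1.56e-24). PPM1D is a phosphatase that ends checkpoint signalling. It had 41.2, 38.8 and 41.8 CPM in untreated CSB_KO cells, 14.8, 14.7 and 14 CPM at 4 h, and 59.5, 58.1 and 55.1 CPM at 20 h (change 1.99 ± 0.05). Their promoters, from 250 bases before to 50 after the start, are shown from RefSeq (GRCh38.p14), with the cyclic AMP response element TGACGTCA in capitals and the rest in lower case. The element is its own reverse complement, so both strands were searched at once. DUSP1 lies on the minus strand at chr5:172771146-172771445 and PPM1D on the plus strand at chr17:60599943-60600242.
DUSP1: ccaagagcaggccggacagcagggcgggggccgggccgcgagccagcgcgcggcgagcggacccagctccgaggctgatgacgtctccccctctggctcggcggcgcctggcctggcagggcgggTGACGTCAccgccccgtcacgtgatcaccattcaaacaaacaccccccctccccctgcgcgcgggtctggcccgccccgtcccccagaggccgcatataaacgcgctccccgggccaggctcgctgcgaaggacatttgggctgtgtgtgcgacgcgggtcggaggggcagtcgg
PPM1D: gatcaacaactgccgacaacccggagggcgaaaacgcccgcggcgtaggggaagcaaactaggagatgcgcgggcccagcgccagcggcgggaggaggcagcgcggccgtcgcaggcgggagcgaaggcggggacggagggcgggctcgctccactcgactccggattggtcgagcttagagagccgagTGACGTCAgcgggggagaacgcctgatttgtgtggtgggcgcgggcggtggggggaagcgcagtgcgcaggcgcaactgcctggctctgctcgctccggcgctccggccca
The element lies 125 bases before the start in DUSP1 and 61 bases before it in PPM1D. It was found in 3.48% of the 8642 promoters of tested genes in the table, in 2 of 84 promoters (2.38%) of raised genes that returned in CSB_KO and in 15 of 311 (4.82%) of lowered genes that returned. Among genes that moved further it was in 4.48% of promoters on the raised side and 3.15% on the lowered side. A match is a description of these letters and shows no binding. Both genes were chosen for display after their values were seen.

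Targets of p53 rose in CSB_KO, 20 of 28 higher and 3 lower at 20 h against 4 h, beside 34.6% and 37.2% of all genes, with a median of 0.84. In WT 19 were higher and 7 lower, beside 34.1% and 35.5% of all genes. SESN2, a stress-induced regulator of growth signalling, had 189, 177 and 185 CPM at 20 h against 61.7, 66.1 and 65.5 CPM at 4 h in CSB_KO. DDB2, which recognises UV lesions outside transcribed strands, fell by 0.60 in CSB_KO, to 16.0, 18 and 14.8 CPM at 20 h against 24.5, 25.1 and 24.7 CPM at 4 h, and rose by 0.35 in WT. On the same background, NF-kB and inflammatory genes rose in 15 of 19 cases and fell in 3 in CSB_KO, and rose in 10 and fell in 4 in WT. CXCL8, the neutrophil-attracting chemokine, had 3.87, 5.35 and 4.00 CPM at 20 h against 0.321, 0.341 and 0.459 CPM at 4 h in CSB_KO. CCL20 had 6 counts in each library at 20 h and none at 4 h. With CCL20 and H4C1 set at a bound of 3 counts, the medians of their lists did not move. Of 24 ATF4 targets 14 rose and 3 fell in CSB_KO, and 16 rose and 3 fell in WT. Those called in CSB_KO included CHAC1, which degrades glutathione (1.73 higher), and SLC7A11, the cystine transporter (1.25 lower).

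**Figure D4:**
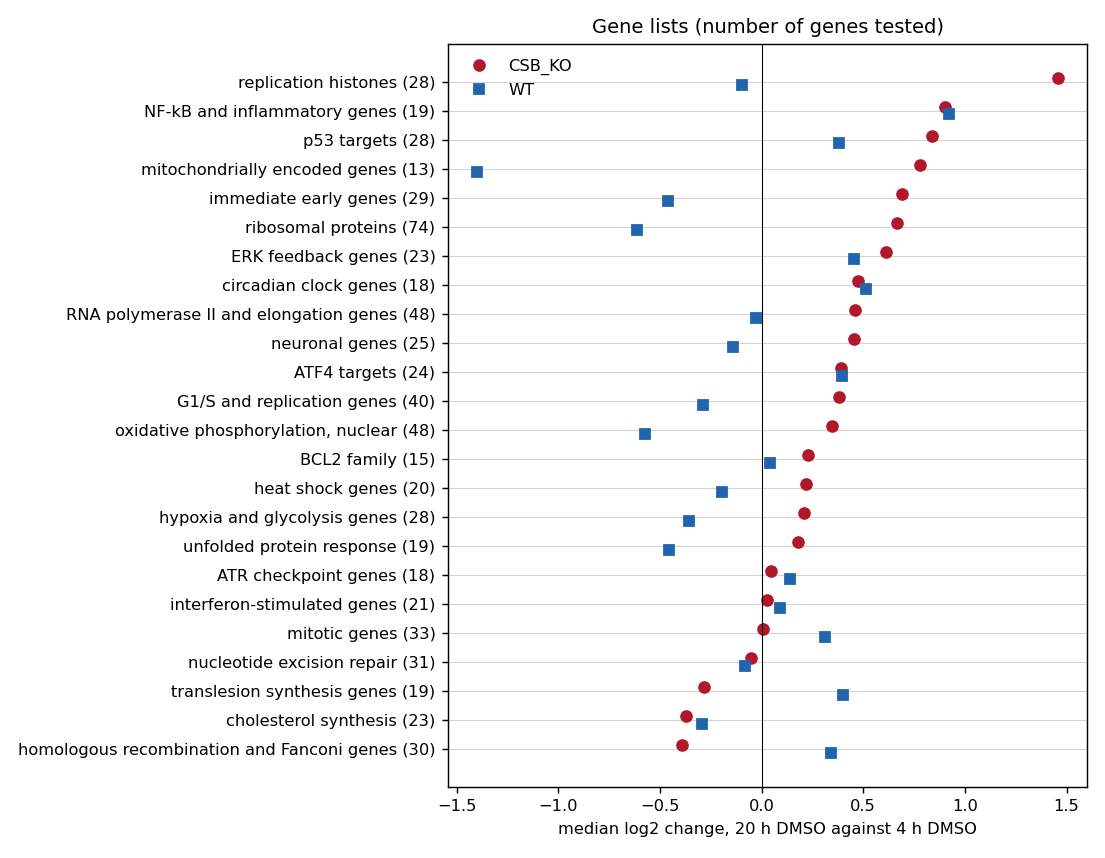
Median log2 change at 20 h against 4 h over the tested genes of 24 lists, in CSB_KO (red circles) and WT (blue squares), with the number of genes tested in brackets. Ribosomal proteins lay at 0.66 in CSB_KO and -0.61 in WT, and homologous recombination and Fanconi genes at -0.39 in CSB_KO and 0.34 in WT.

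More genes of homologous recombination fell than rose in CSB_KO. Of 30 homologous recombination and Fanconi genes, with a median span of 76.9 kb, 8 rose and 20 fell in CSB_KO, beside 34.6% and 37.2% of all genes. In WT 19 rose and 5 fell, beside 34.1% and 35.5% of all genes. The medians were -0.39 in CSB_KO and 0.34 in WT. BRCA1 had 127, 125 and 126 CPM in untreated CSB_KO cells, 103, 93.3 and 99.8 CPM at 4 h, and 42.7, 39.6 and 42.7 CPM at 20 h, and FANCC, of the Fanconi core complex, fell by 2.14. PALB2, the partner of BRCA2, and EXO1, a resecting nuclease, rose by 1.34 and 1.27. Translesion synthesis genes fell in 10 of 19 cases and rose in 5, with the UV lesion polymerase POLH rising by 0.92 and POLQ, of end joining, falling by 1.3. Of 31 nucleotide excision repair genes 9 rose and 13 fell, near the shares over all genes (34.6% and 37.2%). ELOF1, an elongation factor of transcription-coupled repair, rose by 1.19, to 177, 177 and 182 CPM at 20 h against 76.6, 77.8 and 80.2 CPM at 4 h, and MNAT1, of the TFIIH kinase, fell by 1.33. ATR, the kinase of the replication checkpoint, fell by 1.19, and the mitotic inhibitor WEE1 rose by 1.25, within a list of 18 checkpoint genes of which 8 rose and 6 fell, also near those shares.

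The other lists stand beside 34.6% higher and 37.2% lower over all genes. Of 48 RNA polymerase II and elongation genes 36 rose and 8 fell in CSB_KO, with ELL, an elongation factor, 2.07 higher and GTF2F2, a TFIIF subunit, 1.84 lower. In the BCL2 family 8 of 15 rose and 5 fell, and after BCL2L11 the largest increase was in BMF (1.37). Heat shock genes rose in 11 of 20 cases and fell in 4, with DNAJB1, a co-chaperone, 1.37 higher and HSPA4 0.99 lower. Of 19 genes of the unfolded protein response 11 rose and 4 fell, among them HERPUD1 (1.24 higher) and the sensor ATF6 (1.55 lower). Of 28 hypoxia and glycolysis genes 18 rose and 4 fell. Of 18 clock genes 10 rose and 5 fell, with CRY2, a repressor of the clock, 2.32 higher. Of 21 interferon-stimulated genes 5 rose and 6 fell. Cholesterol synthesis genes rose in 5 of 23 cases and fell in 14, with HMGCS1, of the mevalonate pathway, 1.23 lower.

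Some genes of other cell types rose as well. Of 25 neuronal genes 14 rose and 4 fell in CSB_KO, beside 34.6% and 37.2% of all genes. Among them GRM2, a glutamate receptor, had 26.9, 26.8 and 28.5 CPM at 20 h against 3.63, 4.17 and 4.32 CPM at 4 h. Among markers of blood cells 6 of 10 were tested and 4 rose, beside the same 34.6% of all genes. CD14, a monocyte receptor, had 22.7, 20.1 and 23.0 CPM at 20 h against 1.58, 0.756 and 0.870 CPM at 4 h in CSB_KO, and the summed level of the list was 68.4 to 76.8 CPM at 20 h and 18.5 to 20.2 CPM at 4 h. None of its genes were at 0 in all 9 CSB_KO libraries. Markers of fibroblasts summed to 14.7 to 16.5 CPM at 20 h and 10.7 to 11.5 CPM at 4 h. Markers of squamous epithelium summed to 73.2 to 84.5 CPM at 20 h and 48.9 to 53.7 CPM at 4 h, and those of kidney tubule to 16.1 to 16.9 CPM at 20 h and 24.6 to 25.1 CPM at 4 h. The part of such genes in the other results was not tested.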

How the data were processed

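Per the labels' protocols, Qiagen RNeasy was used for the RNA, poly(A) selection followed, and directional libraries were made with NEBNext Ultra II. Per the submitters' processing notes, STAR and RSEM were used on GRCh38, with no versions given there, and deepTools 3.5.1 made coverage tracks that were not used here. The deposited table holds expected counts per gene and library, not normalised by the authors, and its values are whole numbers, so none were rounded here. The annotation release and the strand setting are not given in the sources used here. All 72 value columns were matched to samples by their labels.

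Of 19324 genes, 15470 passed filterByExpr (minimum count 10, minimum total 15). All 72 libraries in 24 groups entered 1 quasi-likelihood fit of edgeR 4.0.16 (R 4.3.3, TMM scaling, 1 coefficient per group), from which 11 contrasts were taken, and calls used a threshold of 0.05 on p-values adjusted by Benjamini-Hochberg across all 15470 genes. The interaction contrasts tested the difference between lines itself. DESeq2 1.42.0 served as an alternative. Data were simulated for CSB_KO at 20 h against 4 h, with 15180 of 15380 genes left unchanged. Calls were made for 50 of 50 genes changed 1.5-fold and for 14 of the unchanged ones. In the real comparison 5350 genes were called higher and 5748 lower, and no separate rate was taken for genes at low levels. The simulation thus does not show that every 1.5-fold change in the data was called. TMM factors ran from 0.857 to 1.13. Total counts per library ran from 36.5 to 213 M, and the precision of each level is its spread over 3 libraries.

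The genes and lists were chosen with earlier results of these data known. Named genes were the 10 largest changes each way that had a symbol, mean log2 CPM 3 or more and no overlap of libraries, the 4 largest in each class and side of the sort (for held genes, the largest displacement), the 5 largest each way in each difference between lines, and up to 2 each way in each list. Some of these are not reported here. Gene spans came from the deposited GRCh38 coordinates, and promoters from RefSeq. Replicate numbers did not pair the samples within CSB_KO. Same-numbered libraries correlated weakly more than others between untreated cells and both 4 h and 20 h, in WT and in STK19_KO1. The main fit did not use replicate numbers.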

Additional observations from a re-analysis of the deposited data

Results flagged for a closer look

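The change between 4 h and 20 h differed between lines by a test of the difference itself (edgeR quasi-likelihood interaction contrasts, adjusted p under 0.05) for the counts and genes given here. In CSB_KO against WT, 5320 genes rose more or fell less and 5648 did the opposite. Against the mean of both STK19 knockouts the counts were 5043 and 4512.

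The differences between CSB_KO and WT (log2) were 4.15 in PSPN, 3.97 in SNAI1, 3.89 in ZNF596, 3.72 in EHBP1L1 and 3.70 in AOC3. They were -3.33 in ADGRL2, -3.29 in TANC1, -3.24 in FYN, -3.22 in ROBO1 and -3.19 in PIK3CB. 

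The differences between CSB_KO and the STK19 knockouts were 2.68 in KRBA2, 2.38 in H4C15, 2.10 in TBC1D5, 2.07 in H2BC5 and 1.99 in EXOC4. They were -2.11 in PEX14, -1.99 in FYN, -1.95 in MBNL1, -1.92 in ADSS2 and -1.90 in ARHGEF7. H4C15 itself did not pass the test between 20 h and 4 h in CSB_KO (0.31 ± 0.32, adjusted p = 0.39), with 15.5, 17.5 and 19.5 CPM at 20 h and 13.7, 13.3 and 15.5 CPM at 4 h, while it changed by -1.51 and -2.64 in the STK19 knockouts. Reads of H4C15 and H2BC5 may be shared with near-identical histone genes.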

How the results depend on the processing

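The median changes of genes under 10 kb, of 100 to 300 kb and over 500 kb kept their sign in every setting run for them. The other span classes were not rerun. No named gene lost its call, and none with a call changed direction. Of 801 checks on named genes, 799 stayed on their side of the threshold. ZNF608 (-0.31), without CSB_KO 20 h replicate 1, and PHLDA1 (-0.20), without CSB_KO 20 h replicate 2, were called lower only there. In CSB_KO at 20 h against 4 h, counts without each library in turn were 5135 to 5284 higher and 5465 to 5554 lower. The balance of calls, 5350 higher and 5748 lower, turned with DESeq2 size factors (5882 and 5192), its Wald test (5873 and 5218) and upper quartile scaling (5633 and 5453). The median change of all genes was -0.02 (log2), 0.06 with DESeq2 size factors and 0.02 with upper quartile scaling. The counts for the difference from the STK19 knockouts were rerun only with DESeq2 size factors and the replicate block. The Wald test covered only CSB_KO and its difference from WT.

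The median changes by gene span, 0.298 (under 10 kb), -0.639 (100 to 300 kb) and -0.917 (over 500 kb), moved to 0.377 and -0.56 (under 10 kb and 100 to 300 kb) with DESeq2 size factors, 0.339 and -0.598 with upper quartile scaling, and 0.278 and -0.647 with only the groups compared. They were 0.202, -0.568 and -0.737 with no filter on low counts, and genes of 100 to 300 kb were at -0.628 with at least 1 CPM in 3 libraries. Without each library in turn they ran from 0.293 to 0.316, -0.648 to -0.621 and -0.950 to -0.870. Classes of the same size ranked by exonic length gave -0.363 and -0.682 for the ranks of 100 to 300 kb and over 500 kb, and the cause was not tested.

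The numbers in the sort depend on the fold required. With calls only, 871 genes partly returned, 1243 crossed, 2084 were held, 4673 moved further and 3070 were late. At 2-fold, 413 returned, 164 partly returned, 18 crossed, 508 were held and 873 moved further. Without each library in turn 691 to 745 returned and 1938 to 2064 moved further.

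Replicate numbers did not pair the samples in CSB_KO. Same-numbered deviations within a line correlated at -0.066 to 0.045 in CSB_KO, -0.029 to 0.184 in WT and -0.053 to 0.075 in the STK19 knockouts. Differently numbered ones in CSB_KO correlated at -0.0359 to 0.057. In WT at 4 h and untreated, same numbers gave 0.184, 0.0732 and 0.116, and different numbers -0.139 to 0.0511. In WT at 20 h and untreated these were 0.0969, 0.0763 and 0.0451, and -0.0925 to 0.0316. STK19_KO1 at 4 h and untreated had 0.0746, 0.0528 and 0.00888, and -0.0609 to 0.00827. At 20 h and untreated STK19_KO1 had 0.0118, 0.0141 and 0.0414, and -0.0253 to 0.0111. A fit with a replicate block gave 5429 genes higher and 5839 lower. Genes near 0 counts, such as H4C1 and CCL20, allow no fold change at this depth.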
